A study of Sus scrofa with 31 samples.

Results

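PRNP encodes the prion protein, a glycoprotein that is held on the outer face of the cell by a glycosylphosphatidylinositol (GPI) anchor and that binds copper through octapeptide repeats near its start. It is made by neurons and, at lower levels, by many other cells, and the misfolded form of the protein is the agent of the transmissible spongiform encephalopathies. PRNP was chosen by name as 1 gene of the 31907 identifiers in the count table, after its levels in these samples were known, so its levels are described without a test between groups. The one relation tested, with marker genes of other brain cells across microglia samples, uses the same values and is no independent support. Its identifier was taken from the gene names of the study's supplementary tables, ENSSSCG00000007039. A second identifier, ENSSSCG00000048919, carries the same symbol in the reference table of gene names, which does not name the first, and both are described.

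The study profiled RNA from 31 samples of 15 male piglets, counted by the tags in the labels. The piglets came from Large White × Landrace sows inseminated with Duroc semen, 1 piglet from each litter, in the fourth week of life, and the litters had been kept in 2 kinds of housing. All were sedated with ketamine, midazolam and medetomidine and anaesthetised with isoflurane before tissue collection. Microglia, the resident macrophages of the brain, were sorted as CD11b-high CD45-low cells from dissociated cerebellum, frontal cortex and hippocampus (n = 8 samples each). Alveolar macrophages were sorted from lung lavage (n = 3), and hippocampal tissue was taken whole (n = 4). No group had a genetic change or a treatment of its own. Tissue RNA was extracted with another kit and from more material than RNA of the sorted cells, so extraction and input cannot be told apart from the contrast of tissue with cells. Samples of 1 pig are related: 9 of the 15 pigs gave more than 1 sample.

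Library totals lay between 18438494 and 43477403 counts. Levels are given as CPM, counts scaled to the library size after TMM normalization, and a floor of 3 counts corresponded to 0.0656 to 0.150 CPM, which covers counting error only. The sorted microglia carried their labelled identity: the summed CPM of 8 microglia markers was 3809 to 7790 in the 24 microglia samples, 168.9 to 223 in tissue and 227 to 398 in alveolar macrophages. Of 7 macrophage markers, MARCO and FABP4 were at 0 in the alveolar macrophages, while the summed CPM of the list was 670.01 to 1189 there and 8.85 to 65.8 in microglia. The summed CPM of 7 lymphoid markers was 649 to 1235 in the alveolar macrophages and 15.1 to 73.4 in microglia, and its part in the values of the alveolar macrophages was not tested.

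The counts of PRNP fell on 1 of its 2 identifiers in 30 of the 31 samples, and which one depended on the sample. ENSSSCG00000007039 held all of them in 9 samples and ENSSSCG00000048919 in 21. In 1 sample, the alveolar macrophages of pig 12821, both had counts, 22 and 175, and no sample was without counts on both. All 4 tissue samples used the first identifier, and all 8 hippocampal and all 8 cerebellar microglia samples used the second. Frontal cortex microglia were divided: 5 samples had counts on the first and 3 on the second. Of the 3 alveolar macrophage samples, 1 had counts on the first and 3 had counts on the second.

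The division followed neither the pig nor the number of counts. Of the 9 pigs with more than 1 sample, 8 had samples that differed in the identifier used, and so did 4 of the 7 pigs with microglia of more than 1 region. In frontal cortex microglia the 3 samples on the second identifier had 9, 25 and 68 counts and the 5 on the first had 25, 46, 84, 198 and 401. Among 19 symbols that 2 identifiers of the count table share, PRNP was the 1 symbol for which each identifier was at 0 in at least 3 samples where the other had at least 5 counts. A count of 0 on 1 identifier was therefore no sign that PRNP was undetected, and the sum of both was used as the level of the gene, a choice made after the division was seen. Where the 2 gene models lie relative to each other, and how the counting assigned reads to them, was not tested.

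In the RefSeq annotation of Sscrofa11.1 PRNP lies on the plus strand at chr17:13694195-13705126. The models have 3 alternative first exons, and the last exon (13702643 to 13705126) holds the whole coding sequence of 774 bases (13702653 to 13703426), with the rest of that exon almost all 3′ untranslated region. The most upstream first exon (279 bases) and the last exon (2484 bases) each matched the assembly in full at 1 place, their own. The last exon had 1 further partial match elsewhere, of 97 bases at 90.7% identity, so the assembly holds no second full copy of these exons.

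Hippocampal tissue held far more PRNP transcript than any sorted sample. The 4 tissue samples had 279 (pig 12829), 279 (pig 12872), 293 (pig 12821) and 322 CPM (pig 12847), from 9092 to 10227 counts, with a mean of 293 ± 20.3 CPM (SD, n = 4). They lay close together, with the highest 1.15 times the lowest. The 8 hippocampal microglia samples had 0.298 CPM at the lowest, 0.641 at the median and 4.86 at the highest, from 7 to 130 counts, with a mean of 1.12 ± 1.53 CPM (SD, n = 8). Their highest sample, pig 12781, stood apart from the other 7, which lay between 0.298 and 0.930 CPM, and without it the mean was 0.590 CPM.

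Tissue and hippocampal microglia did not overlap in PRNP. The mean in tissue was 261 times that in hippocampal microglia, and the lowest tissue sample was 57.3 times the highest microglia sample. The fitted log2 fold change of the sum was -8.03 (SE 1.04). On the first identifier alone, at 0 in all 8 hippocampal microglia samples, tissue was at least 2698-fold higher, with a floor of 3 counts in each library, against 261-fold for the sum. In each of the 4 pigs with both samples, tissue was higher, by 300.47 to 1052 times. In bulk RNA, fewer cells of a type and less RNA per cell cannot be told apart.

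Cerebellar and frontal cortex microglia were also far below hippocampal tissue, and varied more. Cerebellar microglia had 0.275 CPM at the lowest, 1.35 at the median and 13.1 at the highest (6 to 264 counts), with a mean of 3.47 ± 4.48 CPM (SD, n = 8). Frontal cortex microglia had 0.275, 1.66 and 17.5 CPM (9 to 401 counts), with a mean of 4.31 ± 6.08 CPM (SD, n = 8). The highest sample was 47.8 times the lowest in the cerebellum and 63.5 times the lowest in the frontal cortex. Without pig 12902 the cerebellar mean was 2.09 CPM, and without pig 12599 the frontal cortex mean was 2.42 CPM.

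The 3 alveolar macrophage samples had 1.56 (pig 12829), 5.54 (pig 12821) and 6.03 CPM (pig 12984), from 58 to 276 counts, with a mean of 4.38 ± 2.45 CPM (SD, n = 3). All 3 lay within the range of the microglia samples of the cerebellum and the frontal cortex, and tissue was 67.1 times higher on average. The mean over the 24 microglia samples was 2.97 ± 4.46 CPM, and the fitted log2 difference of microglia from alveolar macrophages was -0.78 (SE 0.86), smaller than its error.

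In order of their means, tissue came first, followed by alveolar macrophages, frontal cortex, cerebellar and hippocampal microglia. Only the step from tissue to the rest exceeded the spread of the samples: the lowest tissue sample was 16.0 times the highest sample of the 24 microglia samples and 46.2 times the highest of the alveolar macrophages. The 4 sorted groups overlapped each other, and each of their neighbouring means differed by less than 1 SD of the higher group.

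**Figure D1:**
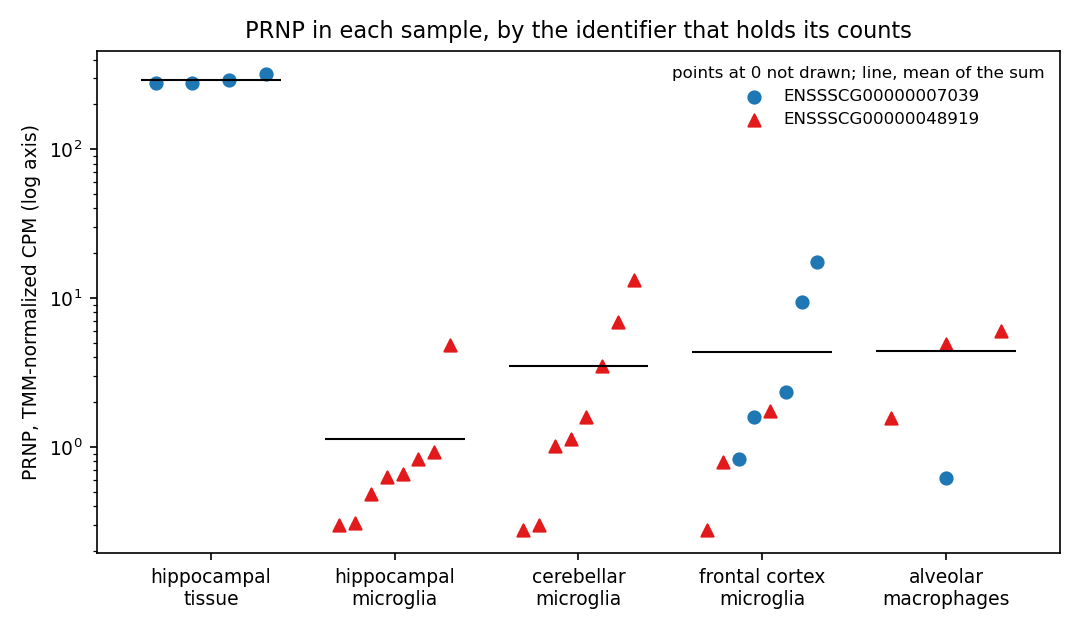
PRNP in the 31 samples by group, as TMM-normalized CPM on a log axis. Each point is the value of 1 identifier in 1 sample (blue circles, ENSSSCG00000007039; red triangles, ENSSSCG00000048919; values of 0 are not drawn) and each line is the group mean of the sum of both. The 4 tissue samples sit between 279 and 322 CPM on the first identifier, and no sorted sample exceeds 17.5 CPM.

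Within a pig the order of the regions was not constant. Of the 6 pigs with cerebellar and frontal cortex microglia, 3 had more PRNP in the frontal cortex and 3 in the cerebellum. Pig 12599 had 1.02 CPM in cerebellar and 17.5 in frontal cortex microglia, and pig 12891 had 0.299 and 9.44 CPM. Pig 12902 had the opposite order, with 13.1 CPM in cerebellar and 0.825 in frontal cortex microglia. A high value thus belonged to a sample and not to a pig in these 3 animals.

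Pig 12821, with 4 samples, had 293 CPM in tissue, 5.54 in alveolar macrophages, 1.57 in cerebellar and 0.833 in hippocampal microglia. Pig 12829 had 279 CPM in tissue, 1.56 in alveolar macrophages and 0.480 in hippocampal microglia. In both pigs that gave lung and hippocampal cells, alveolar macrophages were above hippocampal microglia.

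**Figure D2:**
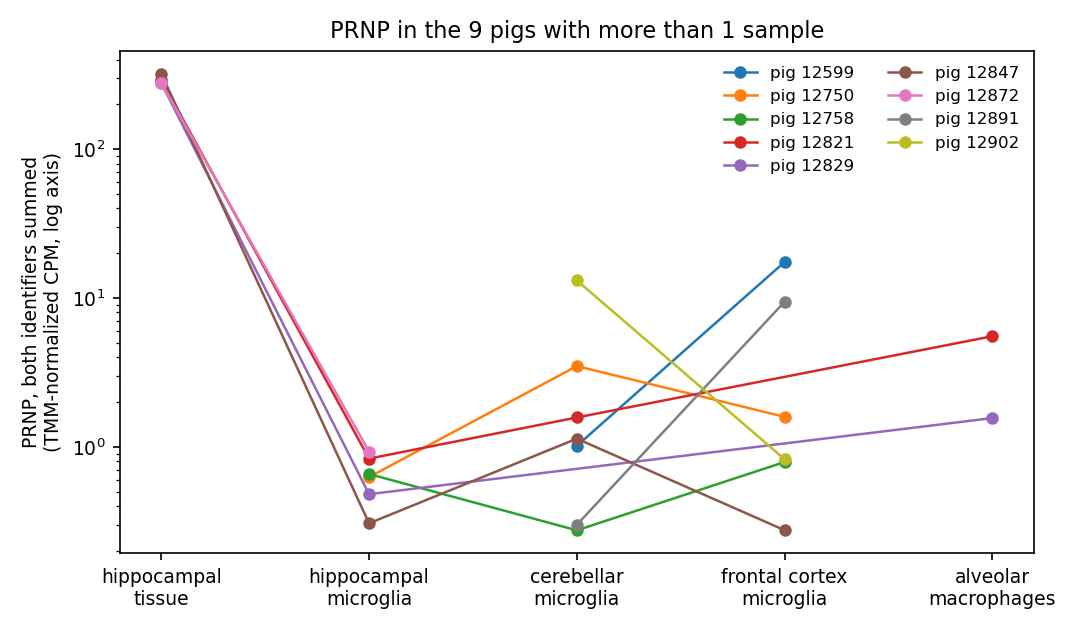
PRNP (sum of both identifiers, TMM-normalized CPM, log axis) in the 9 pigs with more than 1 sample; each point is 1 sample and lines join samples of 1 pig. All 4 lines from tissue fall by 300.47 to 1052 times to hippocampal microglia, and the 6 lines between cerebellar and frontal cortex microglia run up in 3 pigs and down in 3.

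Because sorted microglia can carry RNA of other brain cells, PRNP was set beside lists of marker genes of those cells in the same samples. The summed CPM of 14 neuron markers was 42.5 to 667 in the 24 microglia samples and 6529 to 8112 in tissue, and that of 10 oligodendrocyte markers was 174 to 2593 in microglia and 13497 to 26657 in tissue. No neuron or oligodendrocyte marker was at 0 throughout any region's microglia. In hippocampal microglia 1 gene made up most of each sum. MAP2 had a mean of 81.1 CPM, where the median neuron sum was 96.7, and MBP had 167, where the median oligodendrocyte sum was 228. The same 2 genes weighed heavily in the other regions. In cerebellar and frontal cortex microglia MAP2 had means of 140 and 64.2 CPM, beside median neuron sums of 183 and 76.6. MBP had means of 242 and 338 CPM, beside median oligodendrocyte sums of 235 and 398. Each list was also expressed relative to tissue, as the median over its genes of the level in percent of the tissue mean, which can be compared with the percentage for PRNP. All tissue was hippocampal, so for cerebellar and frontal cortex microglia the reference comes from another region.

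The microglia samples highest in PRNP were high in these markers. Frontal cortex microglia of pig 12599 had 5.95% of the tissue level of PRNP, 9.94% of that of neuron markers and 15.6% of that of oligodendrocyte markers. Cerebellar microglia of pig 12902 had 4.47% for PRNP, 5.91% for neuron markers and 2.82% for oligodendrocyte markers, and frontal cortex microglia of pig 12891 had 3.22%, 3.79% and 5.33%. Cerebellar microglia of pig 12599 went the other way, with 4.44% for oligodendrocyte markers and 0.346% for PRNP. Hippocampal microglia of pig 12781, which stood apart in PRNP with 1.66%, had 1.63% for neuron and 3.51% for oligodendrocyte markers, the highest of that region in both. Over the 24 microglia samples the percentage for PRNP lay below that for neuron markers in 19, below that for oligodendrocyte markers in 23 and below that for astrocyte markers in 21. It lay below that for precursor markers in 13 and for endothelial markers in 14, and in hippocampal microglia it was above that for neuron markers in 4 of the 8 samples. It was below that for neuron markers in 8 of 8 cerebellar and 7 of 8 frontal cortex samples, for which no tissue of their own region was sampled. The part of RNA from other brain cells in the PRNP counts was not tested.

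Across the 24 microglia samples, from 14 pigs, log2 CPM of the summed PRNP was correlated with log2 summed CPM of each of 5 marker lists (two-sided permutation tests, adjusted over the 5 lists). Samples of 1 pig from different regions are not fully independent, and every sample also shares its own library and depth between the 2 measures. For oligodendrocyte markers Pearson's r was 0.790 (permutation p = 3e-05, adjusted p = 7.5e-05) and Spearman's rho 0.768 (permutation p = 3e-05). For neuron markers r was 0.774 (permutation p = 3e-05, adjusted p = 7.5e-05) and rho 0.571 (permutation p = 0.00443). Without the 2 samples farthest from the median of the markers, r was 0.657 for oligodendrocyte and 0.637 for neuron markers.

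The relation with neuron markers was also seen within each region, where the 8 samples come from 8 pigs. Pearson's r was 0.944 in the hippocampus (exact permutation p = 0.00414), 0.905 in the cerebellum (exact permutation p = 0.00221) and 0.919 in the frontal cortex (exact permutation p = 0.00355), with adjusted values of 0.0207, 0.00800 and 0.00887. By rank it was weaker, with rho of 0.690 (exact permutation p = 0.0694), 0.810 (p = 0.0218) and 0.619 (p = 0.115). For oligodendrocyte markers r was 0.778 in the hippocampus (exact permutation p = 0.0137), 0.954 in the frontal cortex (exact permutation p = 0.00166) and 0.577 in the cerebellum (exact permutation p = 0.131), with adjusted values of 0.0344, 0.00831 and 0.219.

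The other 3 lists had lower r over the 24 samples. For 6 oligodendrocyte precursor markers r was 0.639 (permutation p = 0.0008, adjusted p = 0.00133) but rho 0.393 (permutation p = 0.0575), and without the 2 samples farthest from the median r was 0.391. For 10 astrocyte markers r was 0.283 (permutation p = 0.180, adjusted p = 0.190) and rho 0.248 (permutation p = 0.244), although with the mean of z-scored log2 CPM in place of the summed CPM its r was 0.713 and passed the test. SLC1A3 and NDRG2, genes of that list, had means of 207 to 319 and 66.2 to 143 CPM in the 3 microglia groups, where the sum over the list was 291 to 638 CPM. For 6 endothelial markers r was 0.277 (permutation p = 0.190, adjusted p = 0.190) and rho 0.227 (permutation p = 0.285). Within regions the precursor markers had r of 0.868 in the cerebellum (exact permutation p = 0.0032, adjusted p = 0.00800), 0.708 in the frontal cortex (exact permutation p = 0.0484, adjusted p = 0.0605) and 0.199 in the hippocampus (exact permutation p = 0.595, adjusted p = 0.744). The endothelial markers had r of 0.737 in the frontal cortex (exact permutation p = 0.0360, adjusted p = 0.0600), 0.499 in the cerebellum (exact permutation p = 0.206) and 0.216 in the hippocampus (exact permutation p = 0.543), and the astrocyte markers 0.641, 0.0710 and 0.0628 (exact permutation p = 0.0884, 0.864 and 0.860).

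Without the 3 samples highest in PRNP, r was 0.629 for oligodendrocyte (permutation p = 0.00232), 0.549 for neuron (permutation p = 0.00956) and 0.149 for precursor markers (permutation p = 0.517).

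**Figure D3:**
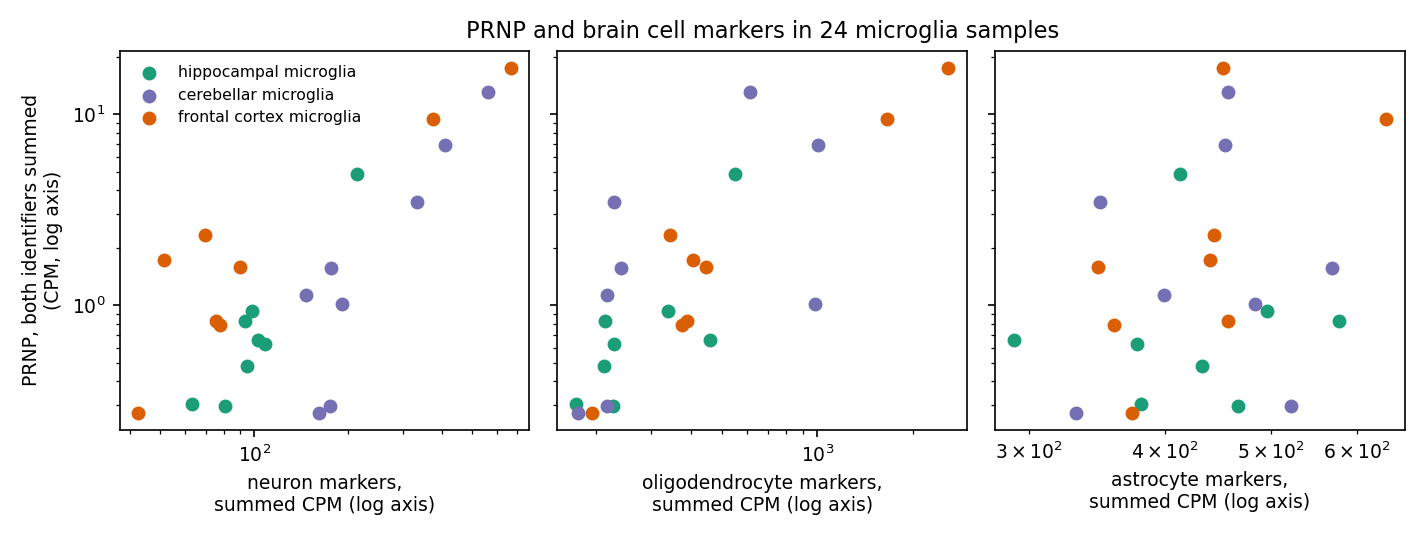
PRNP (sum of both identifiers, CPM) against the summed CPM of neuron, oligodendrocyte and astrocyte markers in the 24 microglia samples, all axes log; each point is 1 sample, coloured by brain region. PRNP rises with neuron (r = 0.774) and oligodendrocyte markers (r = 0.790), while for astrocyte markers r is 0.283 on this scale and 0.713 with z-scored markers.

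Alveolar macrophages, which come from no brain tissue, gave a different picture. They had 0.532% to 2.06% of the tissue level of PRNP, and their neuron markers were at 0.00692% to 0.143% and their oligodendrocyte markers at 0.207% to 0.255% of the tissue level. PRNP was above both lists in all 3 samples. As summed CPM, however, their oligodendrocyte markers were at 152 to 277, within reach of the lower microglia samples, and MBP alone had a mean of 152 CPM. Their astrocyte markers were at 2.33% to 4.60% of the tissue level, above PRNP in all 3.

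By a rule set on the correlation of log2 CPM over all 31 samples with each of 10053 named genes, the gene most like the sum of PRNP was PDE4DIP, which encodes a scaffold protein of the Golgi and centrosome (r = 0.968). It had a mean of 751 CPM in tissue, 30.7 to 73.9 in the 3 microglia groups and 59.6 in alveolar macrophages. Among the next were PRKAA2 (r = 0.962), a catalytic subunit of AMP-activated protein kinase, GPRASP3, SLC26A11, APBB2, CDH6 and NEDD4L (r = 0.938). NEDD4L, a ubiquitin ligase of membrane channels, had means of 187 CPM in tissue, 11.5 to 24.4 in microglia and 18.2 in alveolar macrophages.

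The identifier of the supplementary tables alone, at 0 in 21 samples, gave other genes. Most like it were RTN4RL2 (r = 0.981), a GPI-anchored receptor of the Nogo receptor family, PRKG2 (r = 0.958), a cyclic GMP-dependent kinase, ARHGDIG, LAMA1, CPNE4, LHX2, CDH13 and SCG2 (r = 0.927). RTN4RL2 had a mean of 20.9 CPM in tissue, 1.35 in frontal cortex microglia and 0 in cerebellar microglia. Over the 24 microglia samples alone the genes most like the sum were NBEA (r = 0.917), CHL1 (r = 0.914), FAM184A (r = 0.913), MAP1B (r = 0.908) and OSBPL6 (r = 0.907). CHL1 is a neural adhesion molecule and MAP1B a microtubule protein of neurons, and their means in tissue, 443 and 4026 CPM, compare with 2.95 to 16.1 and 17.4 to 63.2 CPM in the 3 microglia groups. These correlations describe the ranking and share library and depth between their measures.

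Of the other prion protein family members, PRND, which encodes doppel and lies 24589 bases downstream of PRNP, was almost undetected. It had at most 4 counts in tissue, 14 counts in 1 frontal cortex microglia sample and 0 in the other 26 sorted samples. SPRN, which encodes shadoo, was not analysed here.

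Of the 3 named genes on each side of PRNP, 1 passed the thresholds against tissue (adjusted p under 0.01 and fold over 4, which 22.1% of all genes tested passed as lower). It was PSD3, a guanine nucleotide exchange factor 427019 bases upstream, with 352 ± 13.3 CPM (SD, n = 4) against 32.3 ± 11.4 in hippocampal microglia (SD, n = 8; log2 fold change -3.45, SE 0.42, adjusted p = 3.61e-08 by edgeR). POMK, a kinase of dystroglycan glycosylation, had 111 and 58.7 CPM (log2 fold change -0.92, SE 0.11), under the fold threshold. Downstream, RASSF2 had 51.8 CPM in tissue and 99.7 in hippocampal microglia, and SLC23A2, a vitamin C transporter, had 55.5 ± 4.44 and 193 ± 53.1 CPM (log2 fold change 1.80, SE 0.23), below the fold of 4 required, although without normalization factors it passed at 2.02. SLC23A2 was also higher in microglia of the 3 regions than in alveolar macrophages (58.3 ± 8.74 CPM, SD, n = 3), with the log2 fold change at 1.74 (SE 0.24, adjusted p = 5.06e-07). CSGALNACT1 was too low to be tested, with 6.87 CPM in tissue.

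To place PRNP among the genes its protein works with, 5 lists were followed: partners and proteases of the prion protein, the enzymes that build GPI anchors, GPI-anchored proteins of neural cells, those of leukocytes, and genes of copper handling. Of their 104 symbols, 96 had an identifier and 73 passed the filter on low counts, which required over 10 CPM in every sample of at least 1 group. A gene that passed through tissue alone tends to be lower in microglia, so counts against tissue partly follow from the filter. A gene that passed through alveolar macrophages alone likewise tends to be lower in microglia when compared with them. In hippocampal microglia against tissue (adjusted p under 0.01 and fold over 4 by edgeR's quasi-likelihood test), 35 of the 73 were lower and 5 higher, where of all 11633 genes tested 22.1% were lower and 11.7% higher. In microglia against alveolar macrophages (fold over 3), 7 were lower and 10 higher, where of all genes 10.1% were lower and 12.2% higher.

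The median log2 fold change of the 73 genes was -1.83 in the first comparison and 0.45 in the second, with -0.08 and 0.06 over all genes. TMM factors moved all log2 fold changes of the first comparison by 0.22, which is small beside the values below. The lists were chosen with results of these data known, and their counts describe these genes.

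Of the partners and processing genes, 11 of 19 tested were lower in hippocampal microglia than in tissue, where 22.1% of all genes tested were. Among the 11, DPP6, GRM5, APLP1, NCAM1 and GPC1 were over 10 CPM in every sample only in tissue. The filter thus largely set the direction of these genes. DPP6, a membrane partner of potassium channels that binds the prion protein, had 200 ± 42.9 CPM in tissue (SD, n = 4) and 1.68 ± 2.98 in hippocampal microglia (SD, n = 8), with a fitted log2 difference of -6.90 (SE 1.28, adjusted p = 2.99e-05). GRM5, the glutamate receptor mGluR5, had 263 ± 59.5 and 2.57 ± 4.86 CPM (log2 fold change -6.68, SE 1.15). APLP1, a relative of the amyloid precursor, had 987 ± 230.45 and 10.5 ± 11.3 CPM (log2 fold change -6.56, SE 0.93).

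None of the 19 was higher past both thresholds by edgeR, limma-voom or DESeq2, with 4 higher at an unadjusted p under 0.05. Those 4, ADAM17, ADAM9, SLC39A10 and ADAM10, also had adjusted p under 0.01 by edgeR and stayed under the fold of 4. APLP2 (log2 fold change -1.83) and SLC39A6 (-0.63) were lower in the same way. Of the 4 ADAM proteases in the list, which include those that can shed the prion protein, 3 stayed under the fold threshold against tissue, and ADAM8 passed it but not that on p (log2 fold change -3.53, SE 1.44, adjusted p = 0.0275). ADAM10, the main sheddase, had 76.2 ± 11.6 CPM in tissue and 120 ± 17.2 in hippocampal microglia (log2 fold change 0.65, SE 0.13, adjusted p = 3.98e-05 by edgeR), and was named after its values were seen. The log2 fold changes of ADAM17 (1.78, adjusted p = 3.62e-14) and ADAM9 (1.45, adjusted p = 4.58e-08), named in the same way, were also above 0.

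Against alveolar macrophages, 3 of the 19 partners were lower in microglia and 4 higher, where of all genes tested 10.1% were lower and 12.2% higher. The 3 lower genes were ADAM8, FYN and RPSA: FYN, a Src family kinase that the prion protein signals through, had 5.79 ± 7.28 CPM in microglia (SD, n = 24) and 158 ± 18.5 in alveolar macrophages (SD, n = 3; log2 fold change -4.84, SE 0.55, adjusted p = 1.3e-08). FYN is also abundant in lymphocytes, whose markers were high in the alveolar macrophages, and their part in this difference was not tested. ADAM8, a metalloprotease of leukocytes, had 0.0919 ± 0.259 CPM in microglia and 58.9 to 80.4 in the 3 alveolar macrophage samples. It passed the filter only through alveolar macrophages, which largely set its direction. RPSA, the laminin receptor, had 152 ± 27.9 and 521 ± 126 CPM, and since it has many near-identical copies its counts are uncertain. The 4 higher genes were BACE1, SLC39A10, NCAM1 and DPP6. BACE1, the beta-secretase, had 35.4 ± 11.3 and 7.16 ± 2.32 CPM (log2 fold change 2.29, SE 0.29), and SLC39A10, a zinc transporter related to the prion protein in descent, had 159 ± 32.4 and 34.98 ± 5.26 CPM (log2 fold change 2.17, SE 0.15). NCAM1, a neural adhesion molecule, had 25.2 ± 35.9 and 0.250 ± 0.286 CPM, and DPP6 had 8.65 ± 13.1 CPM in microglia and no count in alveolar macrophages. Both lost this call with the pig as a block (adjusted p = 0.0269 and 0.0611) and by limma-voom (adjusted p = 0.200 and 0.0718), and DPP6 also without any 1 of the 3 alveolar macrophage samples (adjusted p = 0.0159 to 0.0171 by edgeR).

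Most genes of the machinery that makes GPI anchors stayed under the fold threshold of 4 between tissue and hippocampal microglia. Of 19 tested, 3 were lower in hippocampal microglia and none higher by edgeR, limma-voom or DESeq2, with 8 higher at an unadjusted p under 0.05, and their median log2 fold change was 0.36. Several under the fold threshold still passed that on adjusted p by edgeR, in both directions. PIGG (log2 fold change 1.53, adjusted p = 1.73e-07) and PGAP2 (1.92, adjusted p = 9.03e-07) were higher, and PGAP1 (-1.55, adjusted p = 8.34e-07) was lower. Of all genes tested 22.1% were lower and 11.7% higher. The 3 lower genes were PIGS, a subunit of the GPI transamidase (257 ± 151 against 4.55 ± 6.28 CPM, log2 fold change -5.82, SE 1.17), PGAP4, which remodels the anchor's glycan (68.3 ± 8.41 against 1.27 ± 1.40, log2 fold change -5.75, SE 1.00), and PIGH, a subunit of the enzyme of the first step (45.7 ± 12.5 against 7.99 ± 4.16, log2 fold change -2.52, SE 0.39). These 3 genes were over 10 CPM in every sample only in tissue, so the filter largely set their direction. Against alveolar macrophages none of the 19 was called in either direction by edgeR or DESeq2 and 1 in each direction by limma-voom, with 2 lower and 8 higher at an unadjusted p under 0.05. Some of them passed the threshold on adjusted p but not that on fold, among them PIGG and PGAP2 (higher) and PGAP1 (lower).

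Most GPI-anchored proteins of neural cells were, like PRNP, lower in hippocampal microglia than in tissue. Of 19 tested, 17 were lower and 1 higher, with a median log2 fold change of -6.42. Of all genes tested 22.1% were lower and 11.7% higher. All of the 17 lower genes except THY1 were over 10 CPM in every sample only in tissue. The filter thus admitted these genes through the group where they are high. Their direction, and with it the count and the median of this list, was largely set by the filter. THY1, an abundant neuronal surface protein, had 219 ± 36.9 CPM in tissue and 0.575 ± 0.580 in hippocampal microglia (log2 fold change -8.56, SE 0.92, adjusted p = 3.03e-09). CDH13, a cadherin without a cytoplasmic tail, had 58.4 ± 3.40 and 0.0965 ± 0.273 CPM (log2 fold change -9.21, SE 1.81). RTN4RL2, with at most 2 counts in any hippocampal microglia sample, was at least 192-fold higher in tissue, and its call was lost with the pig as a block (adjusted p = 0.0124).

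The 1 member that was higher in microglia was GPC5, a glypican. It had 20.9 ± 7.90 CPM in tissue, 131 ± 38.4 in hippocampal microglia and 0.101 ± 0.110 in alveolar macrophages. Its log2 fold change was 2.64 against tissue (SE 0.52, adjusted p = 5.4e-05) and 9.57 against alveolar macrophages (SE 0.91, adjusted p = 3.9e-10), a call lost by limma-voom (adjusted p = 0.0441). NEGR1, an adhesion molecule of the IgLON family, was the 1 member not called against tissue, at 102 ± 18.4 and 95.3 ± 15.2 CPM (log2 fold change -0.09, SE 0.22). It was higher in microglia than in alveolar macrophages, at 82.3 ± 16.7 and 0.126 ± 0.115 CPM (log2 fold change 9.29, SE 0.43).

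Against alveolar macrophages 5 neural GPI-anchored genes were higher in microglia (GPC5, NEGR1, CNTFR, CNTN2 and NTM) and 1, THY1, was lower. The number higher was 10 by DESeq2, 2 by limma-voom, 2 with only the groups compared, 3 with the pig as a block and 3 without the alveolar macrophages of pig 12821. In the same comparison 8 of 14 neuron and 4 of 9 oligodendrocyte markers tested were higher in microglia, where 12.2% of all genes tested were. These marker counts were 1 and 0 by limma-voom, 2 and 0 with the pig as a block and 9 and 6 by DESeq2. The part of RNA from other brain cells in the count of GPI-anchored genes was not tested. CNTFR, a receptor subunit for ciliary neurotrophic factor, was at 0 in all 3 alveolar macrophage samples and at least 47.6-fold higher in microglia, with a mean of 3.65 ± 2.43 CPM there. CNTN2, an axonal contactin, had 24.2 ± 33.6 CPM in microglia and 0.589 ± 0.284 in alveolar macrophages, and NTM, an IgLON protein, had 3.43 ± 5.64 CPM in microglia and at most 1 count in alveolar macrophages. The calls of CNTN2 and NTM were lost with the pig as a block (adjusted p = 0.182 and 0.0780) and by limma-voom (adjusted p = 0.304 and 0.0413). They were also lost without 1 of 2 alveolar macrophage samples, pig 12821 or 12984 for CNTN2 (adjusted p = 0.0168 and 0.0158) and pig 12821 or 12829 for NTM (adjusted p = 0.0140 and 0.0146). THY1 had 2.07 ± 4.09 CPM in microglia and 12.8 ± 2.99 in alveolar macrophages (log2 fold change -3.13, SE 0.62).

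GPI-anchored proteins of leukocytes went both ways. Of 8 tested against tissue, 4 were higher in hippocampal microglia and 3 lower, with a median log2 fold change of 1.69. Of all genes tested 11.7% were higher and 22.1% lower. CD14, the co-receptor for lipopolysaccharide, had 4.89 ± 1.07 CPM in tissue and 180 ± 21.6 in hippocampal microglia (log2 fold change 5.20, SE 0.26, adjusted p = 1.11e-16). PLAUR, the urokinase receptor, had 0.888 ± 0.0832 and 26.6 ± 6.55 CPM (log2 fold change 4.90, SE 0.33), and CD48 had 1.14 ± 0.190 and 31.1 ± 6.15 CPM (log2 fold change 4.76, SE 0.26).

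The 3 lower genes were CD59 and CD55, which protect cells from complement, and RECK, an inhibitor of metalloproteinases. CD59 had 28.5 ± 3.20 CPM in tissue and 0.461 ± 0.827 in hippocampal microglia (log2 fold change -5.92, SE 1.51), RECK had 26.3 ± 4.21 and 0.452 ± 0.781 CPM (log2 fold change -5.85, SE 1.66), and CD55 had 3.64 ± 0.858 and 0.0719 ± 0.0991 CPM (log2 fold change -5.61, SE 1.09). RECK passed the filter only through tissue, which largely set its direction. CD55, CD59 and CD48 were also lower in microglia than in alveolar macrophages: CD55 had 0.464 ± 0.630 CPM in microglia and 50.4 ± 4.43 in alveolar macrophages (log2 fold change -7.52, SE 0.75). CD59 lost that call with the pig as a block (adjusted p = 0.0400). CD55 passed the filter only through alveolar macrophages, which largely set its direction in that comparison. None of the 8 was higher in microglia than in alveolar macrophages by edgeR, limma-voom or DESeq2, with 1 at an unadjusted p under 0.05. That gene, CD14, had adjusted p = 0.00030 by edgeR and stayed under the fold threshold (log2 fold change 0.94).

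Of 9 genes of copper handling tested, 2 were lower in hippocampal microglia than in tissue and none higher by edgeR, limma-voom or DESeq2, with 5 higher at an unadjusted p under 0.05. Those 5, ATP7A, COX17, SLC31A1, SCO1 and COMMD1, also had adjusted p under 0.01 by edgeR and stayed under the fold of 4. Their log2 fold changes were 0.80 (COMMD1) to 1.52 (ATP7A), and CP was lower in the same way (-1.14). The number lower was close to the 22.1% of all genes tested that were lower. MT3, the metallothionein of the brain, had 303 ± 52.2 and 1.77 ± 1.84 CPM (log2 fold change -7.40, SE 0.71, adjusted p = 3.73e-10), and SOD1, the copper-zinc superoxide dismutase, had 98.1 ± 4.83 and 16.4 ± 3.49 CPM (log2 fold change -2.58, SE 0.17). MT3 passed the filter only through tissue, which largely set its direction. Against alveolar macrophages the 1 gene called was CP, ceruloplasmin, higher in microglia at 14.5 ± 4.38 and 3.66 ± 0.972 CPM (log2 fold change 1.98, SE 0.32), and none was lower by the 3 tools, with 2 at an unadjusted p under 0.05.

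**Figure D4:**
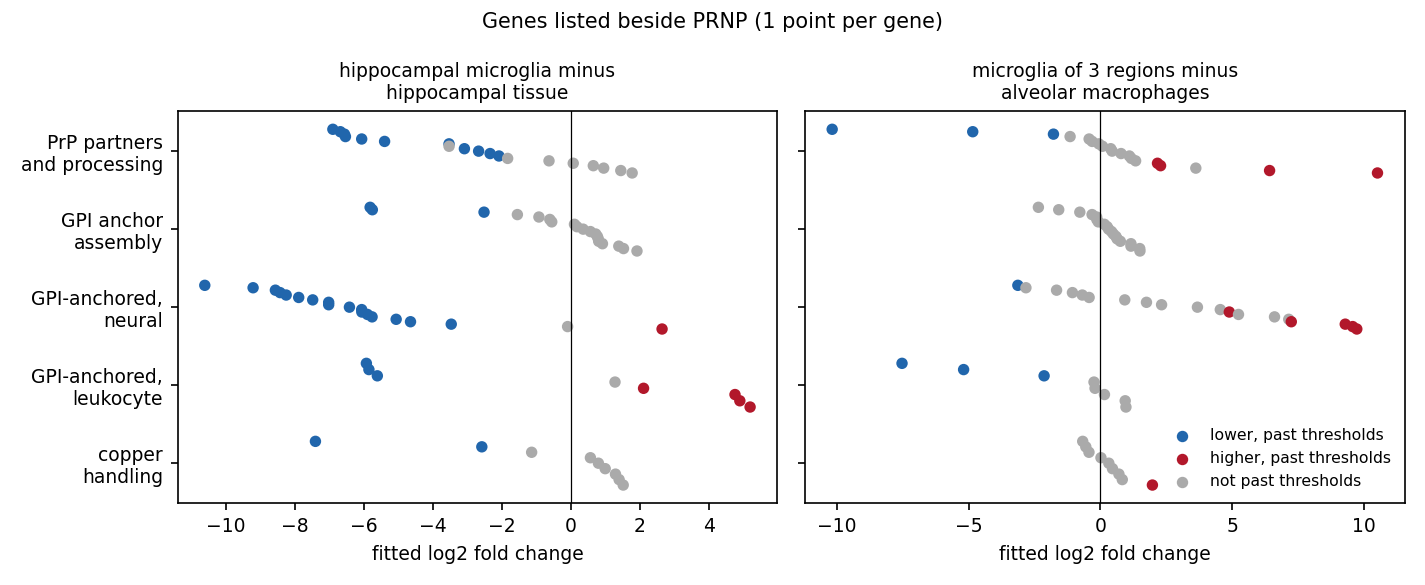
Fitted log2 fold changes of the 73 tested genes of the 5 lists, 1 point per gene and list, in hippocampal microglia against tissue (left) and in microglia of the 3 regions against alveolar macrophages (right); points are coloured where a gene passed the thresholds. Of the neural GPI-anchored genes 17 of 19 are coloured as lower in the first comparison, while 16 of 19 anchor assembly genes are grey there and all 19 in the second. Except for THY1, the filter on low counts largely set the direction of those 17.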

How the data were processed

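RNA of 31 samples was sequenced as stranded total RNA. The authors aligned the reads to Sscrofa11.1 with HISAT2 and deposited raw StringTie counts per gene, without normalization. For the 31907 identifiers, names came from the study's supplementary tables (3689) or the reference table (11778). No replicates were copies (lowest chi-square per degree of freedom 20.5).

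Genes with over 10 CPM in every sample of at least 1 group (11633) were fitted with edgeR 4.0.16 (R 4.3.3; TMM, robust quasi-likelihood, 1 model of the 5 groups, no term for the pig), with Benjamini-Hochberg adjustment. SEs derive from the F statistic, and a prior count of 2 was used for log2 CPM. In simulated data for hippocampal microglia against tissue, 163 of 200 genes changed 8-fold and 0 unchanged genes were called. Correlations used log2(summed CPM + 0.1) and permutation tests (100000 resamples for 24 samples, exact for 8; scipy 1.17.1). Named were, per list, up to 3 called genes each way with the largest change against tissue, the 3 named genes on each side of PRNP, and those most like it, of which 1 is not reported here; genes behind counts of 5 or fewer against alveolar macrophages were named after their values were seen. Pairing comes from the pig: deviations of samples of 1 pig correlated at 0.0791 on average (25 pairs), against -0.00499 between pigs. PRNP and the lists were chosen with earlier results of these data known, and summing the identifiers was chosen after seeing the data. Alternatives were limma-voom (limma 3.58.1), DESeq2 1.42.0, other factors and filters, the groups compared alone, the pig as a block and each sample left out.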

Additional observations from a re-analysis of the deposited data

Results flagged for a closer look

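PRNP in 1 hippocampal microglia sample stood far from the others: pig 12781 had 4.86 CPM on ENSSSCG00000048919, and 4.86 CPM on the sum, and the gap to the next sample was 0.862 of the range of the 8 samples. In frontal cortex microglia, pig 12720 had 1.73 CPM on ENSSSCG00000048919, the highest of 8 on that identifier, with a gap of 0.543 of the range. On the sum of both identifiers pig 12720 was not apart from its group. By chance about 1 in 20 groups is picked out in this way, and 9 combinations of group and measure were examined.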

How the results depend on the processing

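Directions of the summed PRNP values held in all alternatives run. Its log2 fold change of -8.03 against tissue ranged from -8.99 with the pig as a replicate block to -7.76, and from -8.95 to -7.88 with 1 sample left out; that of -0.78 against alveolar macrophages ranged from -1.78 (replicate block) to -0.70, and from -1.18 to -0.40. The first identifier alone depended on the setting, and the cause was not tested. Its bound against tissue (-11.40) was -11.17 without normalization factors and -8.03 for the sum. Its fitted value against alveolar macrophages (-2.27) was 0.27 by limma-voom, -8.50 with the replicate block and -2.83 to 3.27 with 1 sample left out, 3.27 being without pig 12821, the 1 alveolar macrophage sample with counts on it. List members lower in microglia than in alveolar macrophages numbered 11 with no filter (7 as reported), where more genes were tested; those higher numbered 6 by limma-voom, 16 by DESeq2 and 4 with only the groups compared (10 as reported), cause not tested. Against tissue they ranged from 34 to 46 lower and 4 to 6 higher. Of 22 named genes against tissue 1 lost its call in any alternative, and of 21 against alveolar macrophages 6 did; none reversed. The astrocyte correlation was 0.713 with z-scored markers (0.283 as reported), and the precursor correlation 0.149 without the 3 samples highest in PRNP. With region and pig means removed (replicate block), r was 0.957 for neuron, 0.895 for oligodendrocyte, 0.856 for precursor, 0.722 for endothelial and 0.177 for astrocyte markers. These values rest mainly on the 7 of 14 pigs with microglia of more than 1 region, since a pig with 1 sample adds little once its mean is removed. Depth limits the microglia values, which rest on 6 to 401 counts.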
